A study of Mus musculus with 17 samples.

Results

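Neurog3-positive cells of mouse small intestinal organoids were chosen by a measured value: they are the quality-controlled cells that held at least 1 unique molecular identifier (UMI, the tag that counts a captured mRNA molecule) of Neurog3. This rule took 2052 of 19877 cells (10.3%) from 17 Seq-Well S3 single-cell libraries. The organoids were grown from small intestinal crypts of wild-type C57BL/6 animals (female and male, 1 to 6 months old), and every medium held EGF, Noggin and R-spondin 1 (ENR). The 2 ENR+CV libraries of day 0 came from medium with CHIR99021, which activates Wnt signalling, and valproic acid, which keeps the cultures rich in stem cells. The 7 ENR+CD libraries came from medium with CHIR99021 and DAPT, a gamma-secretase inhibitor that blocks Notch receptor cleavage and drives secretory differentiation, at days 0.25, 1, 2, 3, 4 and 6. The 8 ENR+CD+KPT-330 libraries came from the same days with 160 nM KPT-330, an inhibitor of the nuclear exporter XPO1. Each library was made from pooled organoids, there were 2 libraries of a group only at day 0, at day 6 and at day 3 with KPT-330, and what a replicate number stands for is not given in the labels. The p-values of genes therefore measure the spread between these libraries, which may be technical in part. For KPT-330 this spread includes how its difference varied between days. The p-values of shares measure agreement across time points, most of them with 1 library per medium. Neither rests on replicate libraries at each day.

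Neurog3 (neurogenin 3) is the basic helix-loop-helix transcription factor that commits a secretory progenitor of the intestinal crypt to the enteroendocrine lineage. It is expressed briefly, downstream of Notch inhibition, and switches on Neurod1, Insm1, Pax4, Nkx2-2 and other factors, after which the cell leaves the cycle, lowers Neurog3 and makes hormones and secretory granules. Cells with Neurog3 mRNA are thus commonly taken as enteroendocrine progenitors, a label that was set here beside the other genes of the same cells.

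In the GRCm38.p6 assembly Neurog3 occupies chr10:62133090-62134763 on the plus strand. The 250 bases before the start sites of Neurog3 and of 2 transcription factor genes that were higher in Neurog3-positive cells of all 16 libraries tested are shown because factors of the Neurog3 family recognise E-boxes, spelled CANNTG (N is any base; the motif reads the same on both strands). Capitals mark each match, and the sequences are from RefSeq, written from 5′ to 3′ on the strand of the gene, at chr10:62132840-62133089 (plus), chr2:79456637-79456886 (minus) and chr2:147186403-147186652 (minus).
Neurog3: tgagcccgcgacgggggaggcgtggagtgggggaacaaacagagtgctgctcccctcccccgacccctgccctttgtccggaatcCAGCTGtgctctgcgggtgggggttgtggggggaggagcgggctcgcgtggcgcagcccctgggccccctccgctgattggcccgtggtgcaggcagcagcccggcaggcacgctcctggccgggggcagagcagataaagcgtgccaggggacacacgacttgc
Neurod1: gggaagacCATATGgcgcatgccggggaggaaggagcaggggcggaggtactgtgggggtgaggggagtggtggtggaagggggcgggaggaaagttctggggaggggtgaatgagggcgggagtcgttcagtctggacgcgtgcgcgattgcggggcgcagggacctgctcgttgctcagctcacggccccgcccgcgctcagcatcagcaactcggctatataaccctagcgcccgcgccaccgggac
Nkx2-2: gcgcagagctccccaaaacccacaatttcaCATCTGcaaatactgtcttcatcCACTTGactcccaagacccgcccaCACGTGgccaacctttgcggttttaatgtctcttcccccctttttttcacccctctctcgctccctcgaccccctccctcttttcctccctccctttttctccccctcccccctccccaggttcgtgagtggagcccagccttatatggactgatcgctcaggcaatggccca
Of 15 early endocrine factors, 10 had an entry, and 7 of those 10 held the motif, beside 66.2% of 32851 promoters of the same length. A match is a description of letters and no evidence of binding.

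The number of Neurog3 UMIs per cell separated the members widely. Of the 2052 cells, 667 held 1 UMI, 205 held 2, 148 held 3, 502 held 4 to 9 and 530 held 10 or more. Cells were clustered without Neurog3 among the variable genes, and 2 clusters were enteroendocrine-like by their markers: cluster 7, led beside Neurog3 by Miat, Fgd2, Neurod1, Rfx6 and Insm1, and cluster 10, led by the hormone genes Gcg, Cck and Gip with the granule genes Scg2 and Chgb. They held 1186 of the 2052 Neurog3-positive cells. The share of cells in these clusters was 6.82% among the 17825 cells just outside the rule (0 UMIs), 23.4% just inside it at 1 UMI, 73.3% at 4 to 9 UMIs and 88.3% at 10 or more. Cluster 7 held 1027 Neurog3-positive cells among its 1344 (76.4%), whereas cluster 10 held 159 among 1057 (15.04%). The enteroendocrine part of the label therefore held for most cells of high count, while 866 Neurog3-positive cells lay in clusters of other types, 511 of them with 1 UMI. These clusters do not test whether the cells are progenitors. A UMI of the granule genes Chga or Chgb was found in 24.2% of cells at 0 Neurog3 UMIs and 51.9% at 1. The share was 66.8% at 2, 64.2% at 3, 61.8% at 4 to 9 and 71.7% at 10 or more.

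**Figure D1:**
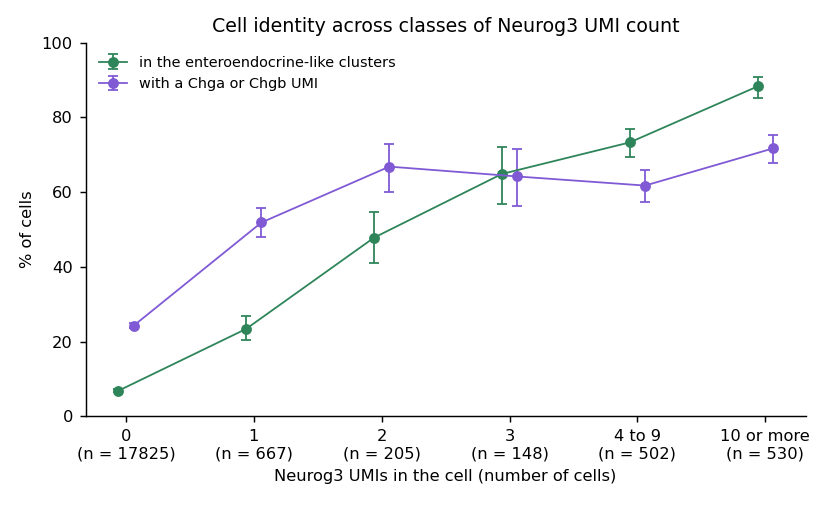
Percent of cells (y axis) in the enteroendocrine-like clusters (green) and with a UMI of the granule genes Chga or Chgb (purple) for each class of Neurog3 UMI count (x axis, with the number of cells); bars are 95% Wilson intervals. The enteroendocrine-like share goes from 6.82% at 0 UMIs to 88.3% at 10 or more.

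Free RNA can give a cell a UMI of a gene that it does not express. In enterocyte-like cells, absorptive cells that should lack Neurog3, 95 of 3360 (2.83%) held a Neurog3 UMI at a median depth of 6604 UMIs, beside 49.4% of enteroendocrine-like cells at a median of 3970 UMIs. Of these 95 cells, 27 held 2 or more Neurog3 UMIs. Their median depth was 8758 UMIs, beside 6554 in the Neurog3-zero enterocyte-like cells. The source of the Neurog3 UMIs in these cells was not tested. In 3 libraries (ENR+CD day 6 replicate 1, and ENR+CD+KPT-330 day 3 replicate 1 and day 6 replicate 1) with at least 80 enterocyte-like cells each, over 5% of these held Neurog3, 7.25% in all, against 1.97% in the other ENR+CD and ENR+CD+KPT-330 libraries. ENR+CD day 4 also stood above 5%, with 3 of 59 enterocyte-like cells (5.08%), and was added to the 3 in a further omission. Outside the enteroendocrine-like clusters the positive share was 11.7% (19 of 162) in the enterocyte-like cluster 13 and 9.72% (126 of 1296) in cluster 8. The leading genes of cluster 13 included the hormone gene Gip beside others such as Apoa4. The leading genes of cluster 8 included Dll1, Fcgbp, Creb3l1 and Spdef, of the early secretory and goblet lineages, beside others such as Cdc25b. At Louvain resolution 0.8 the cluster led by Dll1 and Cdc25b (1062 cells) was closest to the cycling markers. The share in cluster 8 was 9.36% without the 3 libraries, where enterocyte-like cells had 1.83%. It was 6.42% after each cell was thinned to 2000 UMIs, where enterocyte-like cells had 1.05%. The positive cells of cluster 8 carried 2.44 UMIs of Dll1, the Notch ligand, and 0.40 of Neurod1 per 10000 UMIs, whereas those of cluster 7 carried 1.36 of Dll1 and 6.84 of Neurod1. Tuft and immune or stromal markers were nearly absent from Neurog3-positive cells, with summed levels of at most 0.14 and 0.12 UMIs per 10000 in any library, and Ptprc, Cd3e, Cd79a, Gfi1b and Il25 were at 0.

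Neurog3-positive cells were set against all other cells of the same library, with the UMIs of each gene summed per library and tested over 16 libraries with at least 20 positive cells (edgeR's quasi-likelihood test with library as a block, Benjamini-Hochberg adjusted p under 0.05). Of 12841 genes tested, 2546 (19.8%) were raised and 3587 (27.9%) lowered, and without the 3 libraries of high enterocyte-like share 2256 and 3406. All 15 early endocrine factors were raised, with a median log2 difference of 2.99 beside -0.05 over all genes. The gene lists were chosen with earlier results of these data known, so this is not an independent check of the label. Pax4, a repressor that steers endocrine fate, was raised by 4.10 (SE 0.20, adjusted p = 5.7e-15) and Neurod1, a direct target of Neurog3, by 3.15 (SE 0.21, adjusted p = 2.7e-12). Insm1, a zinc finger factor of endocrine differentiation, was raised by 3.55, Nkx2-2, a homeodomain factor, by 3.16, Rfx6, which maintains endocrine identity, by 3.33 and Myt1 by 3.44, each in 16 of 16 libraries. Sox4, which acts early in the lineage, was raised by 1.46 (SE 0.10).

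Per library, a Neurod1 UMI was found in 22.5% to 70.0% of Neurog3-positive cells (median 45.5%) and in 0.4% to 20.3% of the other cells (median 7.6%). Thinned to 2000 UMIs per cell, the medians were 42.01% and 5.91%, and the positive cells had the higher share in 16 of 16 libraries. Outside the lists, the genes with the smallest p-values were Neurod2 (log2 difference 4.71, SE 0.16), another factor of the same helix-loop-helix class, the long noncoding RNA Miat (5.03, SE 0.18), Tubb3, a neuronal tubulin (4.38, SE 0.17), and Fgd2 (3.39, SE 0.13). Among the lowered genes they included Arg2, an arginase (-2.23, SE 0.16), Hsd17b2, a steroid dehydrogenase (-2.06, SE 0.15), and Akp3, an intestinal alkaline phosphatase (-2.55, SE 0.20).

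Genes of the mature endocrine cell moved in both directions. Of 11 late endocrine factors tested, 7 were raised, including Fev, the factor of serotonin cells (2.25, SE 0.16), and 1 was lowered, Nkx6-3 (-0.86, SE 0.21). Of 24 granule and secretion genes, 18 were raised and none lowered, with a median of 1.51: Chga rose by 2.01 (SE 0.22), Chgb by 2.29 (SE 0.25) and the vesicle protein Syt13 by 2.99 (SE 0.27). Of 16 hormone and amine genes, 6 were raised, among them Tph1, the enzyme of serotonin synthesis (2.22, SE 0.29), Tac1, which encodes substance P (1.06, SE 0.24), and Sct, secretin (0.76, SE 0.17). Another 7 were lowered, among them Gcg, which encodes glucagon-like peptide 1 (-2.81, SE 0.48), Gip (-2.29, SE 0.52) and Cck, cholecystokinin (-1.48, SE 0.58). The Cck call was lost without the 3 libraries (adjusted p = 0.094, edgeR).

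Among 18 genes of the Notch pathway and secretory choice, 6 were raised and 7 lowered. The ligands Dll1 (1.07, SE 0.10) and Dll4 (0.39, SE 0.08) and the glycosyltransferases Mfng (4.36, SE 0.19) and Lfng (0.48, SE 0.10), which modify Notch receptors, were raised. The receptor Notch2 (-0.78, SE 0.16), the Notch targets Hes1 (-0.55, SE 0.10) and Nrarp (-0.75, SE 0.30), and the secretory factors Atoh1 (-0.64, SE 0.16) and Spdef (-0.49, SE 0.13) were lowered. The Nrarp call was lost without the 3 libraries (adjusted p = 0.13, edgeR). Of 20 S phase genes, 11 were lowered and 1 raised, for example Mcm3 of the replicative helicase (-0.53, SE 0.13), but only 2 of 22 G2 and mitosis genes were lowered. Of 17 G1 regulators 4 were raised, among them the cell cycle inhibitors Cdkn1c (1.47, SE 0.17) and Cdkn1a (0.82, SE 0.10). Another 8 were lowered, among them the G1 cyclin Ccnd1 (-0.92, SE 0.14), and 5 did not pass. Over all genes 19.8% were raised and 27.9% lowered. Of the markers of other lineages, all 12 enterocyte genes were lowered (Fabp1 by -2.35, SE 0.26), as were all 10 Paneth genes and 8 of 10 goblet genes, with medians of -2.17, -0.68 and -0.80.

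The comparison cells above were mostly of other lineages, so Neurog3-positive cells were next set against Neurog3-zero cells within the enteroendocrine-like clusters (11 libraries with at least 20 cells of each kind). Of 9365 genes, 718 (7.67%) were raised and 833 (8.89%) lowered, and without the 3 libraries of high enterocyte-like share 570 and 665. Of 15 early endocrine factors, 13 were raised, 1 was lowered and 1 did not pass, with a median of 0.64. Gadd45a, a growth arrest gene, was raised by 1.90 (SE 0.11, adjusted p = 2.7e-18), Rcor2, a corepressor, by 1.67 (SE 0.16), Pax4 by 1.65 (SE 0.15) and Sox4 by 1.38 (SE 0.11). Neurod1 and Insm1, whose expression outlasts that of Neurog3, differed less, by 0.33 (SE 0.09) and 0.63 (SE 0.10), and the Neurod1 call was lost without the 3 libraries (adjusted p = 0.063, edgeR). Gadd45a counted 4.13 to 14.01 UMIs per 10000 in the positive cells and 1.48 to 3.51 in the zero cells over these libraries. It is among the genes named by their p-value in this fit, so these ranges are a description.

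Notch genes differed within the lineage as well: Mfng (2.35, SE 0.17), Dll1 (1.07, SE 0.19) and Dll4 (0.33, SE 0.10) were raised among 12 tested, and none was lowered. Other genes with small p-values were Epb4.2, a membrane skeleton protein (2.66, SE 0.15), Miat (2.63, SE 0.16), Neurod2 (2.42, SE 0.18) and Scube1 (3.07, SE 0.25). In the opposite direction, 12 of 14 hormone and amine genes were lowered and none raised, with a median of -2.41. Cck differed by -4.67 (SE 0.28), Gcg by -5.16 (SE 0.40) and Ghrl, which encodes ghrelin, by -1.59 (SE 0.17). Of 23 granule genes, 15 were lowered and 2 raised, from Scg2 (-3.04, SE 0.16) and Pam, the peptide amidating enzyme (-1.68, SE 0.11), to Chga (-0.88, SE 0.10) and Chgb (-0.65, SE 0.11). The late factors Pax6 (-1.62, SE 0.14), Isl1 (-1.41, SE 0.16) and Etv1 (-2.14, SE 0.19) were lowered, and Prox1 was raised (0.28, SE 0.09). Among 14 G2 and mitosis genes 3 were raised, including Ube2c (1.51, SE 0.48). Of 14 G1 regulators 2 were raised, among them the G1 kinase Cdk4 (0.61, SE 0.09), and 2 were lowered. The calls of Prox1 and Ube2c were lost without the 3 libraries.

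Markers of other lineages moved with this comparison. Of 10 Paneth genes 5 were raised and none lowered, with a median of 0.42, for example the ribonuclease Ang4 (1.21, SE 0.24) and the defensin Defa17 (0.65, SE 0.13). Of 7 goblet genes tested 4 were raised and none lowered, with a median of 0.38, among them Muc2, the goblet mucin (0.98, SE 0.24), and Tff3, a trefoil peptide (0.76, SE 0.12). Of 8 enterocyte genes 5 were lowered and none raised, with a median of -0.76, among them Apoa1, an apolipoprotein (-1.32, SE 0.35), whose call was lost without ENR+CD day 6 replicate 1 (-1.15, adjusted p = 0.059, edgeR). Within cluster 7 alone Ang4 (0.91), Defa17 (0.12), Muc2 (0.055) and Tff3 (0.011) did not pass. The part of these markers in the result was not tested.

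The comparison pools cluster 7 and cluster 10. Within cluster 7 alone (6 libraries) 92 genes were raised and 44 lowered: Gadd45a, Miat and Ghrl kept their direction and call, whereas Chgb turned from lowered to raised (0.89) and Cdkn1a from raised (0.49, SE 0.12) to lowered (-0.43).

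**Figure D2:**
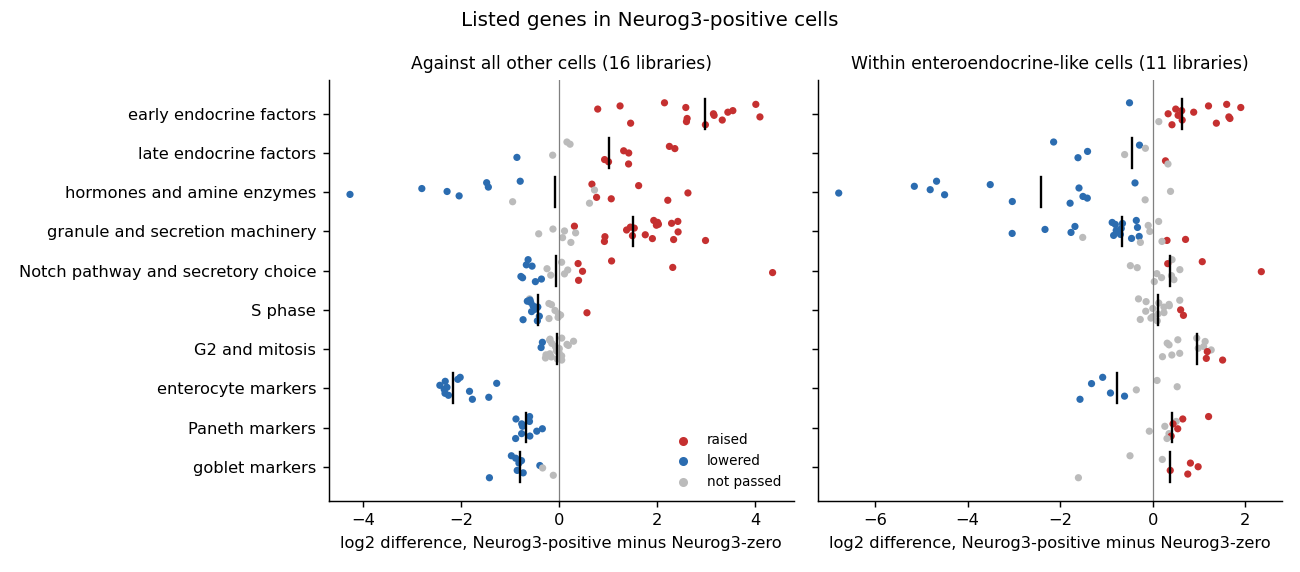
Log2 difference between Neurog3-positive and Neurog3-zero cells (x axis) for the genes of 10 lists (y axis), against all other cells of the library on the left and within enteroendocrine-like clusters on the right; each dot is a gene, red raised, blue lowered and grey not passed, and the black bar is the median of the list. Early endocrine factors lie above 0 on the left, and hormone genes lie mostly below 0 on the right, with a median of -2.41.

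Over the 6 days in ENR+CD and ENR+CD+KPT-330, Neurog3-positive cells gained granule and hormone mRNA and lost mitotic mRNA. The change per day was fitted over 15 libraries with the medium as a covariate, and 818 of 8197 genes (9.98%) rose and 931 (11.4%) fell, and without the 3 libraries of high enterocyte-like share 900 and 1114. Of 21 granule genes 17 rose and none fell, and all 8 hormone and amine genes tested rose. Summed over the granule list, the positive cells of the ENR+CD libraries held 7.27 UMIs per 10000 at day 0.25, 25.001 at day 1, 55.7 at day 2, 122.6 at day 3, 139.8 at day 4 and 124.2 and 173.7 at day 6. With KPT-330 the values were 5.29 at day 0.25, 20.004 at day 1, 19.1 at day 2, 40.02 and 110.7 at day 3, 105.8 at day 4 and 53.7 and 136.9 at day 6. Both series were low to day 1 and high from day 4, except the KPT-330 day 6 library of high enterocyte-like share, at 53.7. The gain was not particular to positive cells. In Neurog3-zero cells of ENR+CD the granule list went from 1.07 at day 0.25 to 57.5 and 70.1 at day 6. Their hormone and amine list went from 0.54 to 20.2 and 23.3. The enteroendocrine-like share of all cells went from 1.93% to 20.4% and 20.2% over the same days, and its part in these values was not tested. In the Neurog3-zero enteroendocrine-like cells of ENR+CD the granule list went from 160.2 at day 2 to 438.9 and 526.3 at day 6. Whether the gain differed between positive and zero cells was not tested. On the log2 scale per day, Chgb rose in positive cells by 0.80 (SE 0.14), Chga by 0.74 (SE 0.17), Scg2 by 1.02 (SE 0.14), Resp18, a granule protein, by 1.01 (SE 0.09) and Sct by 0.83 (SE 0.08).

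All 18 G2 and mitosis genes tested fell, as did 11 of 15 S phase genes. The proliferation marker Mki67 counted 17.2 UMIs per 10000 in positive cells of ENR+CD at day 0.25, 5.42 at day 1, 2.16 at day 2 and between 0.89 and 2.35 later, and fell by 0.58 per day (SE 0.12, adjusted p = 0.0027, edgeR). Kif11, a spindle motor, fell by 0.62 (SE 0.11) and Mcm5 by 0.56 (SE 0.10). The mitotic list went the same way in the Neurog3-zero cells, from 36.9 UMIs per 10000 in ENR+CD at day 0.25 to between 4.54 and 7.14 from day 2. Of the 15 early factors 2 rose (Pax4 by 0.32, SE 0.10, and St18 by 0.34, SE 0.09) and Sox4 fell by 0.21 (SE 0.04), a share near that of all genes tested. Of 6 late factors 3 rose, including Fev (0.52, SE 0.12) and Pax6 (0.44, SE 0.11). In the Notch list Dll1 fell by 0.44 (SE 0.07), Lfng by 0.24 (SE 0.05) and the receptor Notch1 by 0.31 (SE 0.07).

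Paneth genes moved with time too: all 10 rose in Neurog3-positive cells, for example Ang4 by 1.02 (SE 0.11) and Mmp7 by 0.84 (SE 0.14). Their summed level in the ENR+CD positive cells was 26.9 UMIs per 10000 at day 0.25 and 938 and 1027 at day 6, and in the Neurog3-zero cells of the same libraries 32.3 at day 0.25 and 1256 and 1237 at day 6. Counted only in positive cells of the enteroendocrine-like clusters, 1 of 9 Paneth genes rose, with Mmp7 at -0.05 and Lyz1 at -0.31 per day. In those cells 381 of 8186 genes (4.65%) rose and 388 (4.74%) fell, and the endocrine and mitotic changes kept their calls: 17 of 22 granule genes and 8 of 10 hormone and amine genes rose, and all 11 mitotic genes tested fell. The chaperone Clu rose in both fits (1.35, SE 0.10, and 1.11), whereas Nupr1, a stress-response gene, rose by 0.90 (SE 0.08) in all positive cells and by 0.11 (adjusted p = 0.76, edgeR) in the enteroendocrine-like ones.

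**Figure D3:**
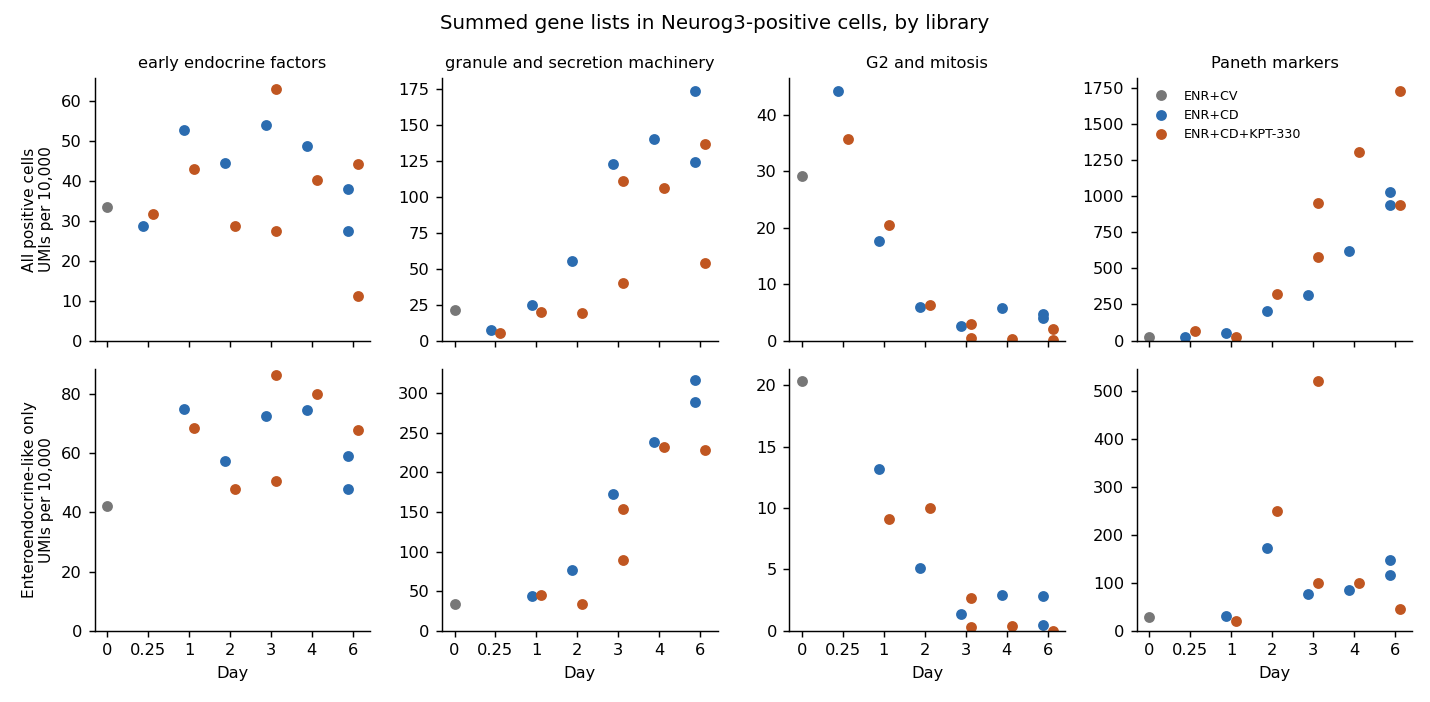
Summed UMIs per 10000 (y axes) of 4 gene lists in Neurog3-positive cells by day (x axes), for all positive cells (top) and those in enteroendocrine-like clusters (bottom); each point is a library with at least 20 such cells, coloured by medium. Granule genes go up and mitotic genes go down in both rows, while Paneth genes reach 1728 in the top row and stay at or below 521 in the bottom row.

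KPT-330 lowered the share of Neurog3-positive cells. In the ENR+CV libraries the share was 2.45% and 2.87%. In ENR+CD it was 4.65% at day 0.25, 17.5% at day 1, 19.0% at day 2, 18.8% at day 3, 14.3% at day 4 and 20.4% and 11.3% at day 6. With KPT-330 it was 4.27% at day 0.25, 8.20% at day 1, 9.33% at day 2, 14.4% and 5.11% at day 3, 3.38% at day 4 and 7.32% and 3.896% at day 6. Control libraries were higher at each day from day 1, and the intervals of the media overlapped at day 0.25. Over the 6 time points the mean log2 odds ratio was -1.29 (SD 0.70, an odds ratio of 0.409), lower at 6 of 6, with p = 0.03125 in an exact two-sided sign-flip permutation test, the smallest value that 6 time points allow (0.0469 adjusted over 3 share tests). Without the 3 libraries of high enterocyte-like share it was -1.42, and without ENR+CD day 4 as well -1.26, lower at 5 of 5 time points (exact p = 0.0625, the smallest value that 5 allow). Thinned to 2000 UMIs per cell it was -1.39, lower at 5 of 6 time points (exact p = 0.0625).

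The Neurog3 share of enterocyte-like cells, used here as a measure of background though its source was not tested, moved with the medium at some days. In ENR+CD it was 0% at day 0.25 (0 of 130 cells), 4.19% at day 1, 4.00% at day 2, 1.96% at day 3, 5.08% at day 4 and 8.89% and 0% at day 6. With KPT-330 it was 1.43% at day 0.25, 1.22% at day 1, 2.43% at day 2, 6.78% and 0.23% at day 3, 0% at day 4 (0 of 158 cells) and 7.29% and 0% at day 6. Its mean log2 odds ratio was -0.84 (SD 2.14), lower with KPT-330 at 5 time points and higher at 1, and these shares rest on 0 to 23 positive cells a library. The part of background in the lower share of all cells was not tested. Counting as positive only the Neurog3-positive cells of the enteroendocrine-like clusters, the mean log2 odds ratio of the share was -1.63, lower at 6 of 6 time points.

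The lower share was also seen inside the enteroendocrine-like clusters. Of their cells 77.3% were Neurog3-positive in ENR+CD at day 0.25, 87.6% at day 1, 81.3% at day 2, 59.7% at day 3, 57.5% at day 4 and 45.6% and 35.0% at day 6. With KPT-330 the shares were 52.4% at day 0.25, 66.1% at day 1, 73.1% at day 2, 50.4% and 40.3% at day 3, 16.7% at day 4 and 15.2% and 12.4% at day 6. Day 0.25 rested on 17 of 22 cells in ENR+CD and 11 of 21 with KPT-330. The intervals of the media overlapped at days 0.25 and 2, and at day 3 for KPT-330 replicate 1. The mean log2 odds ratio was -1.61 (SD 0.77, odds ratio 0.328, lower at 6 of 6 time points, exact p = 0.03125, adjusted 0.0469), and it was -1.36 with cells thinned, -1.64 without the 3 libraries and -1.42 without ENR+CD day 4 as well (5 time points, exact p = 0.0625). For the share of Neurog3-positive cells with a Chga or Chgb UMI, the mean log2 odds ratio was -0.59 (SD 0.71), lower at 4 and higher at 2 time points (exact p = 0.125). It was -0.92 in cells with 2 or more Neurog3 UMIs and -1.23 (SD 1.63) in positive cells of the enteroendocrine-like clusters, each over 5 time points, lower at 3 and higher at 2 (exact p = 0.25). Whether this share responded less than the others was not tested. Over all cells of a library Neurog3 was at 20.8 and 34.8 CPM (UMIs scaled to the library total) in ENR+CV, 28.6 in ENR+CD at day 0.25 and between 198 and 309 later, and with KPT-330 24.9 at day 0.25 and between 33.4 and 85.7 later. The log2 difference was -1.61 (SE 0.19, adjusted p = 1.8e-04, edgeR), lower at 6 of 6 time points and at -1.59 without the 3 libraries, where 1841 of 12812 genes (14.4%) were raised and 1820 (14.2%) lowered. In such sums fewer positive cells and less Neurog3 mRNA per cell cannot be told apart. Per positive cell, the mean was 4.30 to 9.93 Neurog3 UMIs in ENR+CD and 2.22 to 6.47 with KPT-330, a raw count that depends on the rule and on depth and was not tested. At day 4 the positive cells had a median of 3785 UMIs in ENR+CD and 2566 with KPT-330. At day 2 the medians were 5868 and 8153.5.

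**Figure D4:**
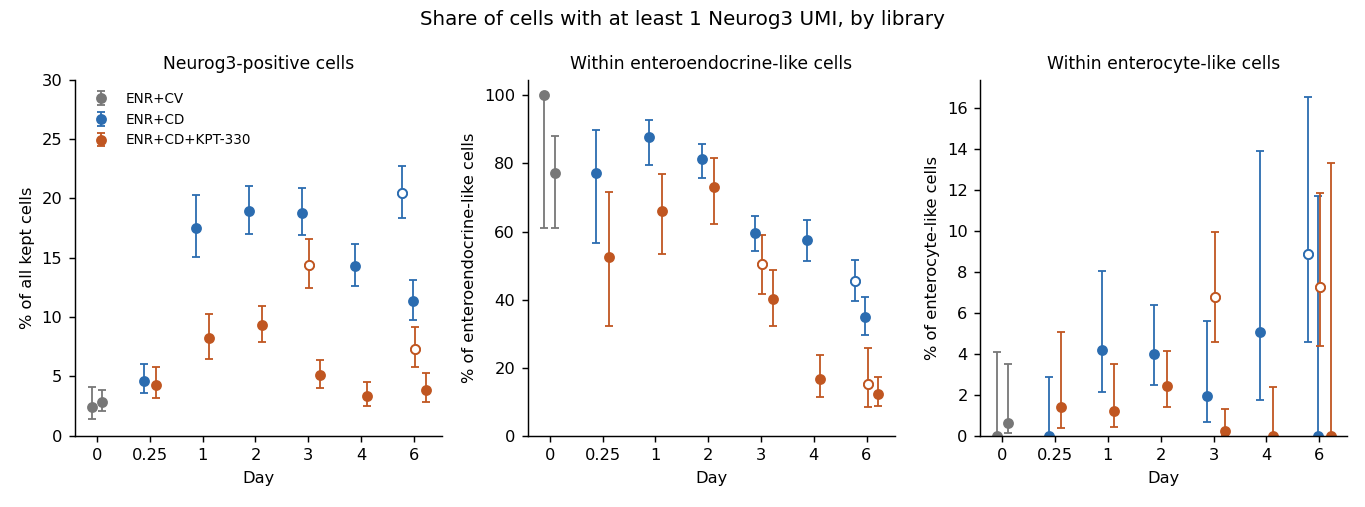
Percent of cells with a Neurog3 UMI (y axes) by day (x axes, categories) among all kept cells, enteroendocrine-like cells and enterocyte-like cells; each point is a library with its 95% Wilson interval, and open points are the 3 libraries of high enterocyte-like share. From day 1 the KPT-330 points lie below the controls of the same day in the first and second panels.

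Within Neurog3-positive cells few genes passed for KPT-330. Summed over all cells of the same libraries, 1841 of 12812 genes were raised and 1820 lowered. The sums of positive cells held only 39 to 162 cells in a KPT-330 library, so the counts do not compare the size of the responses. With time point as a covariate (15 libraries), 97 of 8945 genes (1.08%) were raised and 58 (0.648%) lowered, and without the 3 libraries of high enterocyte-like share 89 and 42. Xpo1, the target of the drug, was raised: positive cells of ENR+CD counted 1.58 UMIs per 10000 at day 0.25 and 0.72 to 0.82 later, and those with KPT-330 counted 4.89 at day 0.25 and 1.01 to 3.00 later. Its log2 difference was 1.504 (SE 0.14, adjusted p = 2.3e-05, edgeR), higher at 6 of 6 time points. Slc16a6, a monocarboxylate transporter, was raised by 2.43 (SE 0.23): control values lay between 0.21 and 0.51 and KPT-330 values between 1.10 and 2.87. The gene was named by its p-value and equal sign at every time point of this fit, so these ranges are a description. Arrdc3 (1.35, SE 0.16), Odc1, the first enzyme of polyamine synthesis (0.91, SE 0.12), Nupr1 (1.71, SE 0.23) and the stress genes Atf3 (1.17, SE 0.18) and Chac1 (2.38, SE 0.36) were raised as well.

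Of the 15 early endocrine factors 1 passed, Pax4. It counted 0.30 UMIs per 10000 at day 0.25, 0.60 at day 1, 0.89 at day 2, 1.45 at day 3, 1.53 at day 4 and 0.70 and 1.86 at day 6 in ENR+CD. With KPT-330 it counted 0 at day 0.25, 0.22 at day 1, 0.07 at day 2, 0.25 and 0.52 at day 3, 0.15 at day 4 and 0.13 and 1.19 at day 6. Each day was lower with KPT-330 on average, although the values of day 6 overlapped, and the log2 difference was -2.08 (SE 0.36, adjusted p = 0.0087, edgeR). The other 14, Neurod1 among them, did not pass, and the list median was -0.42. Mfng was lowered by 1.86 on the log2 scale (-1.86, SE 0.39) among 12 Notch genes, of which Spdef was raised (0.80, SE 0.20). Ddc, the decarboxylase of amine synthesis, was the only gene called of 10 hormone and amine genes (-0.91, SE 0.15). Chgb (-0.99, SE 0.22), Snap25, a membrane fusion protein (-1.32, SE 0.28), and Pam (-0.84, SE 0.17) were lowered among 22 granule genes. Wif1, a secreted Wnt inhibitor (-2.29, SE 0.27), Tenm4 (-1.87, SE 0.21) and Map1a, a microtubule protein (-2.64, SE 0.41), were among the other lowered genes with small p-values.

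Markers of other lineages moved with the medium in these cells. Muc2, the goblet mucin (1.35, SE 0.21), Agr2 (1.04, SE 0.25) and Zg16 (2.66, SE 0.64) were raised among 7 goblet genes, and Mmp7 (1.22, SE 0.24) among 10 Paneth genes. Goblet markers summed to between 15.02 and 96.7 UMIs per 10000 in the ENR+CD positive cells and between 29.96 and 213.5 with KPT-330, and their part in the result was not tested. In enteroendocrine-like positive cells alone, 18 of 8695 genes (0.207%) were raised and 22 (0.253%) lowered, and 32 of these 40 genes were shared with the 155 called in all positive cells (20.6% of the larger list). Xpo1, Slc16a6, Arrdc3, Odc1, Nupr1, Atf3, Pax4, Mfng, Tenm4, Wif1, Map1a, Ddc and Snap25 kept their calls there. Muc2 (2.05, adjusted p = 0.061, edgeR), Chgb (-0.83, adjusted p = 0.057, edgeR), Agr2, Mmp7, Spdef and Pam did not pass, and neither did Ddit3, which was raised in all positive cells (1.09, SE 0.26). The calls of Ddit3, Spdef and Pam were also lost without the 3 libraries of high enterocyte-like share. The counts also rested on single libraries: without ENR+CD day 3 replicate 2, 12 genes were raised and 3 lowered, and without ENR+CD+KPT-330 day 6 replicate 2, 225 and 176. Over 21 such omissions of a library or time point the call of Pax4 was lost in 4, of Mfng in 4, of Chgb in 13, of Agr2 in 16, and of Spdef and Ddit3 in 17, and none of these genes changed direction.

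**Figure D5:**
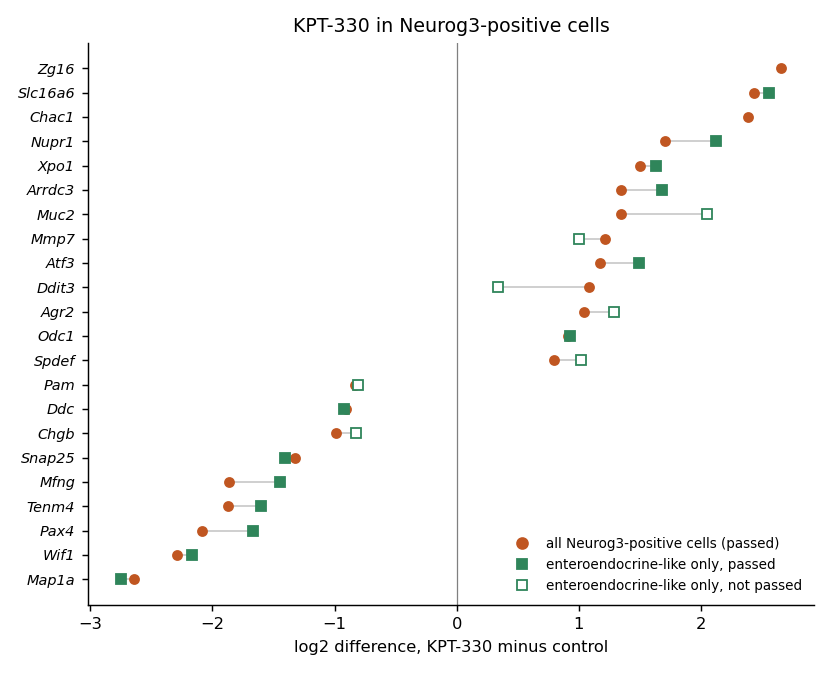
Log2 difference between KPT-330 and control (x axis) for the 22 genes named in the comparison (y axis), in all Neurog3-positive cells (orange) and in the enteroendocrine-like ones alone (green, open where the adjusted p was 0.05 or more; Zg16 and Chac1 were not tested there). The directions are shared for every gene tested in both, with Xpo1 at 1.504 and 1.63 and Pax4 at -2.08 and -1.67.

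Whether the response to KPT-330 differed between Neurog3-positive and other cells of the same libraries was tested with an interaction term in edgeR. Of 12676 genes 0 (0%) passed in either direction, while 798 had an unadjusted p under 0.05, and no other tool was run. The differences between positive cells and the rest are thus not shown to depend on the drug, and a p that misses the threshold does not show that the responses were alike.

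Across the 17 libraries, the genes whose level in all cells was most like that of Neurog3 (Pearson correlation of log2 CPM) were Pax4 (r = 0.96), Tmem44 (0.95), Dbn1 (0.95), Fam214a (0.93), Epb4.2 (0.93), Fgd2 (0.93), Tubb3 (0.93), Ccnt2 (0.93), Sbk1 (0.93) and Mfng (0.93). The libraries share media and days, so these values are a description. Of the 10, Pax4, Epb4.2, Fgd2, Tubb3 and Mfng are also described above as raised in Neurog3-positive cells. Their ranges over the libraries were wide, for example 0.66 to 32.2 CPM for Pax4 and 20.8 to 309 for Neurog3.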

How the data were processed

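Count tables of UMIs per gene and cell were deposited for 17 libraries. The authors aligned reads to mm10 with STAR in the Drop-seq pipeline and collapsed UMIs. They removed barcodes with under 500 genes, over 35% mitochondrial UMIs or over 30000 UMIs, and low outliers in housekeeping gene expression. Doublets were removed by inspection and DoubletFinder. These steps were not repeated here. The deposited counts were used as they stand; 19877 of 26229 barcodes had been kept. Libraries held 531 to 1547 kept cells and 3458887 to 12433109 UMIs, with medians of 2676 to 8463 UMIs per cell. Among kept cells 14 barcode sequences occurred in more than 1 library, 3 Neurog3-positive cells among them.

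Cells were clustered with Seurat 5.3.0 (SCTransform 0.4.2, 3000 variable genes without Neurog3, 9 components, Louvain resolution 0.45) and clusters named from fixed markers. UMIs were summed per library over groups of at least 20 cells and tested with edgeR 4.0.16 (TMM factors, filterByExpr, glmQLFit, glmQLFTest, Benjamini-Hochberg threshold 0.05). Of these fits, only positive cells against all others and KPT-330 within positive cells were also run on simulated counts. Neurog3 was left out of the fits on cells chosen by it. Levels are UMIs per 10000 UMIs of the same cells. Shares carry 95% Wilson intervals, which cover counting error only, and were compared with exact sign-flip tests of the log2 odds ratio per time point after adding 0.5 cells to each count. Named genes were members of 17 lists, the 10 genes of lowest p in each direction among those of equal sign in every library or time point, and the 10 genes most like Neurog3. The text gives a part of the genes that the rule names, chosen after their values were seen, and the others are not reported here. Members and lists were chosen with earlier results of these data known. Alternatives were DESeq2 1.42.0, other factors and filters, at least 2 Neurog3 UMIs, cells thinned to 2000 UMIs, other clusterings, omission of each library, and, chosen after seeing the data, omission of the libraries in which over 5% of enterocyte-like cells held Neurog3 (3 with at least 80 such cells, 4 in all).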

Additional observations from a re-analysis of the deposited data

How the results depend on the processing

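At 1 UMI free Neurog3 RNA and low expression cannot be told apart, and 1060 cells fell under the thinning depth. Positive cells against all others kept their counts within 1.5 times under every alternative run. Within enteroendocrine-like cells, thinning gave 336 raised and 362 lowered, and cluster 7 alone, chosen after seeing the data, 92 and 44, where Chgb (0.89), Prox1 (-0.10) and Cdkn1a (-0.43) reversed. Defa17 reversed when thinned (-0.21) and Muc2 against Neurog3-zero cells with 2 UMIs of Chga and Chgb (-0.074). Without the 4 libraries over 5% (chosen after seeing the data) that comparison gave 410 and 472, KPT-330 within positive cells 36 lowered, and the shares of positive cells -1.26 over all and -1.42 within enteroendocrine-like cells (exact p = 0.0625 each, over 5 time points). For KPT-330 within positive cells the counts were 181 raised with DESeq2, 307 raised and 307 lowered with no filter on low counts, 11 and 17 at 2 or more UMIs, 57 and 21 thinned, and 18 and 22 in enteroendocrine-like cells (chosen after seeing the data); Zg16 reversed at 2 or more UMIs (-0.64), and leaving out a library or time point gave 12 to 225 raised and 3 to 176 lowered, with the low ends without ENR+CD day 3 replicate 2 and the high ends without ENR+CD+KPT-330 day 6 replicate 2. Changes per day gave 457 raised at 2 or more UMIs, 197 and 216 thinned, 170 and 152 in controls alone, 1272 raised with log2(day + 1), 381 and 388 in enteroendocrine-like cells, where Mmp7 (-0.051), Lyz1 (-0.31) and Xpo1 (0.039) reversed, and 498 to 868 raised and 508 to 1102 lowered with a library left out, the lowest without ENR+CD day 0.25 replicate 1. The interaction called 3 raised and 6 lowered genes at 2 or more UMIs, and 0 to 1 raised and 0 to 9 lowered with a library left out. For the share of positive cells the mean log2 odds ratio was -1.39 thinned (exact p = 0.0625) and -1.52 to -1.10 with a time point or library left out; 5 time points cannot go below p = 0.0625. The share within enteroendocrine-like cells was -1.61 with log-normalized clusters over 5 time points (exact p = 0.0625) and -1.79 to -1.38 in the omissions. The media shared a replicate number at every day, but 2 pairs were present only at day 6 (correlation of deviations 0.43). The numbers are therefore not taken as a pairing. With a replicate block KPT-330 gave 234 raised and 153 lowered, and the Chga or Chgb share -0.71 (exact sign-flip p = 0.047). Days 0.25 and 1 held only replicate 1, and days 2 and 4 only replicate 2. Changes per day and differences between replicate numbers can thus not be told apart in full. The cause of these differences was not tested.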
